A study of Mus musculus with 8 samples.

Results

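The transcription factors that set the gene programme of the hepatocyte were followed across liver tumours, the liver around them and liver of mice on normal diet. The set held 9 genes, listed by name: Hnf4a, Cebpa, Cebpb, Foxa1, Foxa2, Foxa3, Nr1i2, Nr1i3 and Onecut1. They stand among 19321 genes on the array, of which 16799 were bright enough to be tested. Each of the 9 had 1 probe, and each probe had a value on all 8 arrays.

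The first group was tumour tissue from 3 livers (mice 1, 117 and 186) of animals that had received the carcinogen DMBA (dimethylbenzanthracene) at 4 to 5 days of age and high fat diet for 30 weeks. The second was non-tumour tissue of the same 3 livers. The third was liver of 2 mice (117 and 120) with the same DMBA treatment and 30 weeks of normal diet, so no group was free of DMBA. The number 117 on normal diet was taken to be an animal other than the high fat mouse 117, because the diets differ. Strain and sex are not given in the sources used here. The arrays are named by tissue and mouse number.

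Several of these factors act as a network in which they bind the promoters and enhancers of one another. HNF4α, a nuclear receptor encoded by Hnf4a, sits at its centre and drives genes of lipid, bile acid and clotting factor production. The FOXA proteins (Foxa1, Foxa2, Foxa3) are winged-helix pioneer factors that open liver chromatin, and HNF6, the product of Onecut1, is a cut-homeodomain factor of liver and bile duct development. C/EBPα (Cebpa) is a leucine zipper protein that supports metabolic genes and restrains cell division, whereas C/EBPβ (Cebpb) is induced in inflammation and regeneration. CAR (Nr1i3) and PXR (Nr1i2) are nuclear receptors for foreign compounds that pair with RXR and induce cytochrome P450 genes.

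In the GRCm38.p6 annotation, Nr1i3 lies on chromosome 1 (171213934 to 171218845), Foxa3 on chromosome 7 (19013283 to 19023539) and Cebpa on the same chromosome (35119293 to 35121928). Chromosome 2 holds Cebpb (167688915 to 167690432), Hnf4a (163506811 to 163572907) and Foxa2 (148042877 to 148046969). Foxa1 lies on chromosome 12 (57540628 to 57548029), Onecut1 on chromosome 9 (74861921 to 74889648) and Nr1i2 on chromosome 16 (38248349 to 38294849). The part of the transcript that each probe binds is not given in the sources used here.

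RefSeq promoter windows of that build, each with 250 bases before and 50 after the start site, matched all 9 genes with 12 windows. The windows below belong to the 4 genes that changed between tumour and non-tumour tissue and to the downstream start of Hnf4a, the gene known for the use of that promoter in adult liver. Both strands were searched for the TATA box TATAAA, the CCAAT box (spelled as its name), the GC box GGGCGG, the E-box CACGTG and the cyclic AMP element TGACGTCA. The liver motifs searched were the HNF1 half-site GTTAAT, the FOXA motifs TGTTTAC or TGTTTGC, the HNF6 motifs ATTGATTA or ATCGAT, and the C/EBP motifs TTGCGCAA or TTNNGNAA. The nuclear receptor half-site AGGTCA and the HNF4 core CAAAGTCCA were searched too, as were the full HNF1 site and the direct repeat 1 of nuclear receptors. The motif TTGCGCAA is a case of TTNNGNAA, the GTTAAT half-site is part of the full HNF1 site, and AGGTCA is part of the direct repeat. Capitals mark the matches, and all sequences run 5′ to 3′ on the strand of the gene.
Nr1i3, chr1:171213720-171214019, plus strand: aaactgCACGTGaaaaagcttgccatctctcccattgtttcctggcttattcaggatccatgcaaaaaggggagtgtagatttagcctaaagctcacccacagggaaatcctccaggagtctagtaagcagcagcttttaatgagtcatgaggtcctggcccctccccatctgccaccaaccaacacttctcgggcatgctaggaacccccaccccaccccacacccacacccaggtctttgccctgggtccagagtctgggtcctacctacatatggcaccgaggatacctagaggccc
Foxa3, chr7:19023490-19023789, minus strand: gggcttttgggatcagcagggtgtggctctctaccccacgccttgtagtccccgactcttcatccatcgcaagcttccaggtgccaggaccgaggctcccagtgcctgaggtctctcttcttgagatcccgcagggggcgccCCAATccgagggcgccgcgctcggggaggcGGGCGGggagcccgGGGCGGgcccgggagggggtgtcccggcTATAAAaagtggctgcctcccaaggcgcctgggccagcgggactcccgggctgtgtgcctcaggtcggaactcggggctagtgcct
Cebpa, chr7:35119043-35119342, plus strand: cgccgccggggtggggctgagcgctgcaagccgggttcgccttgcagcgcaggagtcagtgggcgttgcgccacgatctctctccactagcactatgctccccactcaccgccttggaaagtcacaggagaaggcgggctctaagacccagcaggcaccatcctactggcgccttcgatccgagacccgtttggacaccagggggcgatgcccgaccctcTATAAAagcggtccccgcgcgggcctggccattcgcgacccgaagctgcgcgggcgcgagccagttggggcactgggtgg
Cebpb, chr2:167688665-167688964, plus strand: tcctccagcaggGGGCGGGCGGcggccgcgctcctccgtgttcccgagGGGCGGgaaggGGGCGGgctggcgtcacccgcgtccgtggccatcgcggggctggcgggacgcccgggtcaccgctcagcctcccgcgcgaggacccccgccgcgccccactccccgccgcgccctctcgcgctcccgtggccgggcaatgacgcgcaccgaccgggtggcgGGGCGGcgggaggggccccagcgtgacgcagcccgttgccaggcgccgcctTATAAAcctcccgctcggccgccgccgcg
Hnf4a downstream start, chr2:163546905-163547204, plus strand: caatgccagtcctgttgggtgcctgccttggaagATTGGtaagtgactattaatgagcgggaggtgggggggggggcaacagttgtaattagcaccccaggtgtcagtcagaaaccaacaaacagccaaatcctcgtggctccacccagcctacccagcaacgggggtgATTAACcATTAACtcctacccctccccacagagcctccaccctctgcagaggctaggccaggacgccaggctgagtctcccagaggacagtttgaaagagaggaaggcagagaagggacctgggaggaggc
The Nr1i3 window held a single match, the E-box CACGTG, a motif found in 7.15% of the 32851 windows in the table. Foxa3, Cebpa and Cebpb each held 1 TATAAA, which was found in 13.6% of all windows. It began 36 bases before the start in Foxa3 and 30 before it in Cebpa, but 21 bases after it in Cebpb. Foxa3 further held 1 CCAAT and 2 GGGCGG, and Cebpb held 5 GGGCGG, found in 37.4% and 35.7% of windows. The Hnf4a window held a pair of HNF1 half-sites on the minus strand (ATTAAC), which began 81 and 74 bases before the start, a half-site found in 7.10% of windows, and 1 CCAAT box on the minus strand. These matches describe letters and do not show binding.

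Levels are the deposited normalized intensities, which are linear and scaled so that the median of the listed probes is 25 on every array. Levels of different probes were not set against each other. Log2 changes come from a limma fit to the background-corrected and quantile-normalized scanner signals of all 8 arrays, with p adjusted over the 16799 genes, and a gene was said to change at an adjusted p below 0.05. An offset of 50 added to each signal understates the folds of dim genes. Quantile normalization compares a gene with genes of like brightness, so its change can differ from the ratio of deposited values.

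The 14 hepatocyte markers were bright in all groups, with summed intensities of 279372 to 306045 in tumours, 269946 to 293109 in non-tumour tissue and 331750 to 335179 on normal diet. Of these markers 5 rose and 3 fell in tumours relative to non-tumour tissue, against 12% and 13.4% of all genes. The sums are dominated by very bright genes such as Alb (47269 ± 1825 in tumours). A fall of a dimmer marker hardly shows in them, such as that of Cps1 (111 ± 53.4 in tumours and 295 ± 63.7 in non-tumour tissue). Cholangiocyte markers (10 measured) summed to 2221 to 4961 in tumours, 147 to 231 in non-tumour tissue and 137 to 161 on normal diet. Without Tspan8 these sums were 223 to 258 in tumours, 129 to 167 in non-tumour tissue and 125 to 138 on normal diet. Macrophage markers (12) summed to 2055 to 3048 in tumours, 3499 to 4133 in non-tumour tissue and 2109 to 2865 on normal diet. The 3 erythroid markers measured summed to 108 to 119 in tumours, 339 to 400 in non-tumour tissue and 473 to 575 on normal diet. The adipocyte-defining gene Adipoq had no value on any array. The part of other cell types in the results below was not tested, and in bulk tissue fewer cells of a type and less RNA per cell cannot be told apart. The scaling factors of the arrays were 1.11 to 1.29 on high fat diet, against 0.773 to 0.832 on normal diet. The slope between scanner gain settings was 0.464 to 0.465 on high fat diet, against 0.444 to 0.445 on normal diet, so diet and a property of the scan cannot be told apart.

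**Figure D1:**
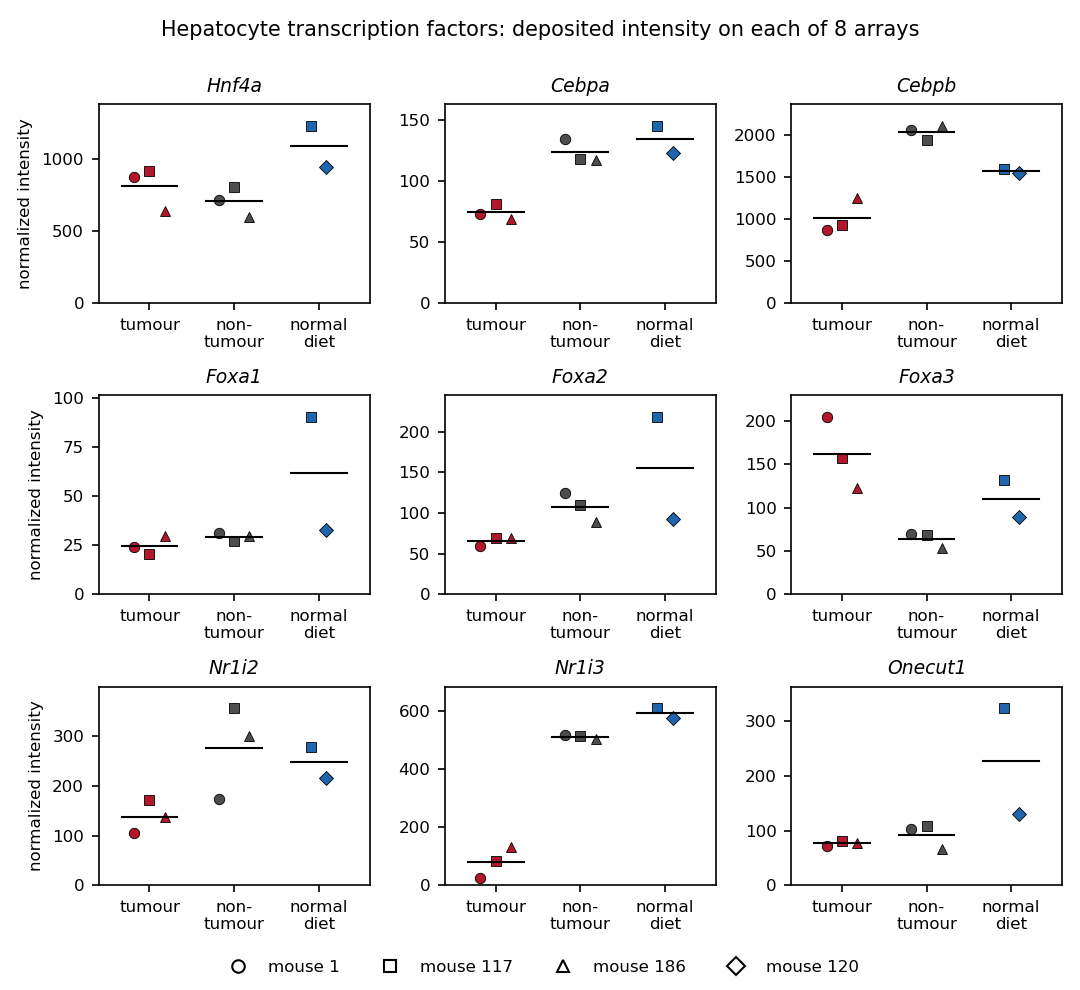
Deposited normalized intensity (linear axis from 0) of each of the 9 genes in 3 tumour, 3 non-tumour and 2 normal diet arrays, with symbols for mice and a line for the group mean. Nr1i3 lies at 24.7 to 133.4 in tumours, against 505.4 to 516.8 in non-tumour tissue, while Foxa3 lies at 122.9 to 204.8 in tumours, against 53 to 69.4 in non-tumour tissue.

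Tumours were first set against the non-tumour tissue of the same livers, which asks how these factors differ within a liver that carries a tumour. Of the 9 factors, 3 fell in tumours (Nr1i3, Cebpb, Cebpa), 1 rose (Foxa3) and 5 were not called. Over all tested genes 25.4% changed, 12% upwards and 13.4% downwards, and with 9 genes nothing particular to the factors is read from the count. The median log2 change of the 9 was -0.41, against -0.0061 over all genes.

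**Figure D2:**
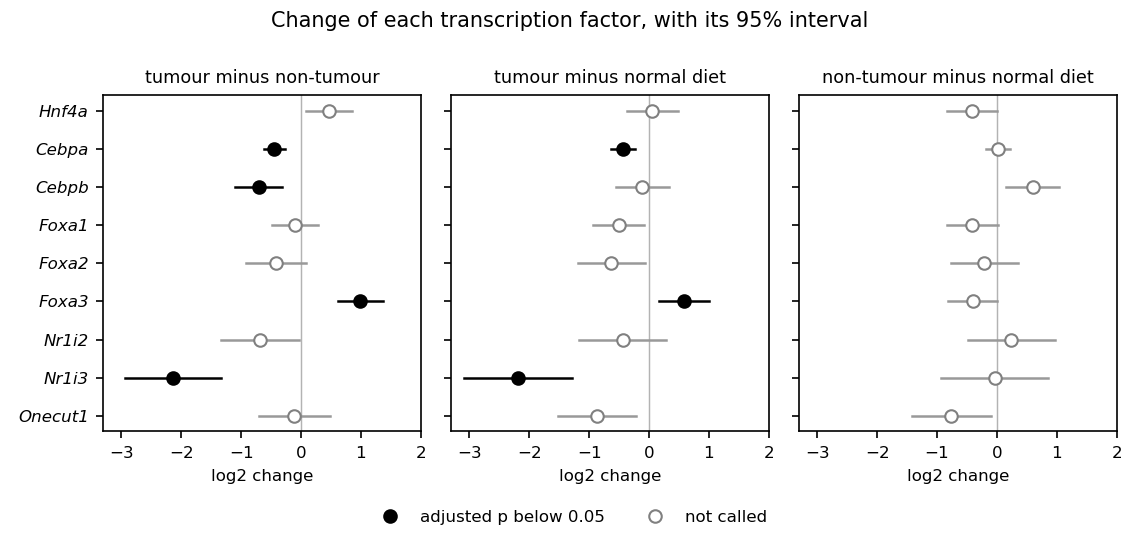
Log2 change of each factor with its 95% interval in tumour minus non-tumour, tumour minus normal diet and non-tumour minus normal diet, with filled points for an adjusted p below 0.05. The point of Nr1i3 lies at -2.14 and -2.18 in both tumour comparisons and at -0.040 between the diets.

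Nr1i3, which encodes CAR, had the largest change of the 9. Its intensity was 24.7, 84.6 and 133.4 in tumours 1, 117 and 186, against 516.8, 515.2 and 505.4 in the non-tumour tissue of the same mice and 611.6 and 578.4 on normal diet. The 5 arrays outside tumours lay close together, and the tumours lay below all of them and spread widely. Nr1i3 averaged 80.9 ± 54.4 in tumours and 512 ± 6.17 in non-tumour tissue (SD, n = 3 each). It fell by 2.14 on the log2 scale (SE 0.33, limma adjusted p 0.00543), and 0.458% of the 16799 genes had a larger change. Within a mouse the non-tumour tissue was brighter by 20.9, 6.09 and 3.79 times in mice 1, 117 and 186. The call ended with a local background reading in place of blank spots (adjusted p 0.127), a setting that ended the call of every factor and left 129 genes called in all.

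Nr1i2, which encodes PXR, was at 104.8, 171.6 and 137.2 in tumours 1, 117 and 186, against 173.9, 355.5 and 299.1 in non-tumour tissue. In these deposited values the tumour lay below the non-tumour tissue in each of the 3 mice and the groups did not overlap. The spread in both groups was wide. On the normalized log2 scale, which gave the changes below, the groups overlapped, with tumour 117 (8.07) above non-tumour 1 (7.87). The log2 change was -0.68 ± 0.27 (SE), with a limma adjusted p of 0.119. With the mouse as a block, the change was -0.68 with an adjusted p of 0.0200, and without non-tumour array 1 it was -0.95 (adjusted p 0.0290). With the deposited values in the fit it was -0.96 (limma adjusted p 0.0260). On the normalized scale the log2 ratio of Nr1i3 to Nr1i2 was lower in tumours than in non-tumour tissue by 1.46, with no overlap. The 2-sided exact permutation p was 0.1, the smallest that 3 against 3 unpaired arrays allows (0.117 adjusted over the 7 pairs of factors compared).

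Known target genes of CAR and PXR moved mostly downwards in tumours. Of 31 tested of 36 listed, 20 fell, 2 rose and 9 were not called, with a median log2 change of -1.05, against -0.0061 over all genes. Without tumour array 117, or without any 1 of the 3 non-tumour arrays, 14 were called. Cyp2c54, a cytochrome P450 of the Cyp2c family, averaged 136 ± 110 in tumours and 885 ± 253 in non-tumour tissue (log2 change -2.42). Alas1, the rate-limiting enzyme of haem synthesis, averaged 1564 ± 915 in tumours and 7804 ± 2205 in non-tumour tissue (log2 change -2.19). Cyp3a16, of the Cyp3a family, averaged 893 ± 185 in tumours and 4127 ± 480 in non-tumour tissue (log2 change -1.88). Normal diet liver (n = 2) averaged 4874 ± 611 for Cyp2c54 and 9954 ± 1929 for Cyp3a16, above non-tumour tissue. The log2 change of non-tumour minus normal diet was -2.21 for Cyp2c54 and -0.95 for Cyp3a16, neither called (limma adjusted p 0.127 and 0.0981). Alas1 was at 5964.6 and 3130.4 on normal diet, below its non-tumour mean. Members of the Cyp2c and Cyp3a families are near copies, so their probes may share signal.

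The Cyp2b genes, which hold the best-known CAR target, did not follow. Cyp2b10 was named after its values were seen. It was at 465.6, 352.1 and 410.8 in tumours 1, 117 and 186, against 453.9, 324.3 and 376.7 in non-tumour tissue and 84.9 and 39.7 on normal diet. Its tumour and non-tumour values overlapped (log2 change 0.28, limma adjusted p 0.272), while both stood above normal diet liver. Cyp2b9, a female-biased member in mice, averaged 994 ± 170 in tumours and 733 ± 179 in non-tumour tissue, against 11.8 ± 7.21 on normal diet (n = 2). It rose by 0.72 in tumours over non-tumour tissue and by 3.70 in non-tumour tissue over normal diet (log2, limma adjusted p 0.0219 and 0.00105). In tumours the lower CAR message thus stood beside lower values of 20 listed targets and beside higher or overlapping values of these Cyp2b genes.

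**Figure D3:**
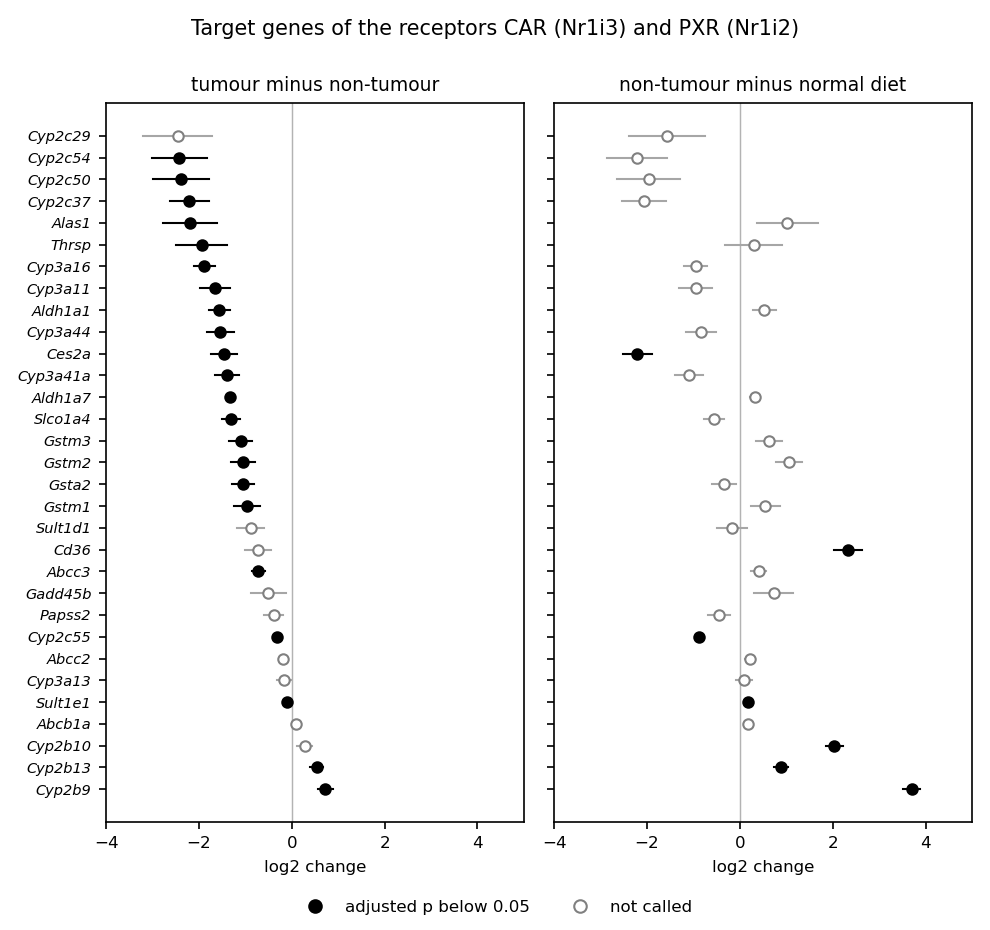
Log2 change ± SE of 31 tested target genes of CAR and PXR in tumour minus non-tumour (left) and non-tumour minus normal diet (right), with filled points for an adjusted p below 0.05. In tumours 20 genes are called lower, and Cyp2b9 and Cyp2b13 are the 2 called higher.

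Tumour 1 had the lowest Nr1i3 value of the 3 tumours and tumour 186 the highest. The same order of the 3 tumours was seen in 15 of the 31 target genes (48.4%), against 17.5% of all tested genes. The opposite order was seen in 2 of the 31 (6.45%), against 21.1% of all genes. The order was not particular to these targets: it was seen in 8 of 13 C/EBPα targets (61.5%), 12 of 29 HNF4α targets (41.4%) and 12 of 32 other liver-enriched factors (37.5%). Cyp2c50, for example, was at 9.6, 157.1 and 238.1 in tumours 1, 117 and 186. This count was made after the values were seen, rests on 3 tumours, and includes near-copies of Cyp2c and Cyp3a genes.

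Among RXR partners and cofactors of the nuclear receptors, 1 rose and 3 fell of 15 tested and 18 listed, a share close to that of all genes. Ppargc1a, a coactivator of HNF4α that is induced in fasting, averaged 141 ± 15.6 in tumours and 63.0 ± 7.18 in non-tumour tissue and rose by 0.86 on the log2 scale (limma adjusted p 0.000641). Rxra, the main RXR of liver, averaged 39.8 ± 5.81 in tumours and 50.5 ± 5.99 in non-tumour tissue (log2 change -0.17, adjusted p 0.0288). The count was 2 in place of 4 without either of non-tumour arrays 1 and 117 or either normal diet array.

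Cebpa was at 73.2, 80.8 and 68.4 in tumours 1, 117 and 186, against 134.5, 118.2 and 117.0 in non-tumour tissue and 145.2 and 123.1 on normal diet. The tumours lay below all 5 other arrays, and the spread within each group was small. Cebpa averaged 74.1 ± 6.25 in tumours and 123 ± 9.78 in non-tumour tissue (SD, n = 3 each) and fell by 0.45 on the log2 scale (SE 0.073, limma adjusted p 0.00653). Of 13 tested genes on the list of C/EBPα targets, 6 fell and 1 rose, against 13.4% and 12% of all genes. Cebpa itself is 1 of the 6, and several genes stand on other lists too. Bhmt, which remakes methionine from betaine, averaged 1920 ± 743 in tumours and 9299 ± 957 in non-tumour tissue (log2 change -1.99). Otc, of the urea cycle, averaged 861 ± 390 in tumours and 2764 ± 256 in non-tumour tissue (log2 change -1.50). Serpina1a, an α1-antitrypsin gene, was the 1 that rose (log2 change 0.71). Without non-tumour array 117 or 186, 3 and 4 of these genes were called in place of 7.

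Cebpb was at 871.1, 932.3 and 1243.5 in tumours 1, 117 and 186, against 2053.4, 1933.2 and 2109.0 in non-tumour tissue and 1598.8 and 1549.1 on normal diet. In these deposited values the 3 groups did not overlap, with normal diet between the others. On the normalized log2 scale tumour 186 (10.79) lay above both normal diet arrays (10.52 and 10.54). The log2 change of tumour minus normal diet was -0.11 (limma adjusted p 0.695). Cebpb averaged 1016 ± 200 in tumours and 2032 ± 89.9 in non-tumour tissue (SD, n = 3 each) and fell by 0.71 on the log2 scale (SE 0.16, limma adjusted p 0.0225). The call ended without tumour array 117 (adjusted p 0.0681), and it also ended when non-tumour array 1, 117 or 186 was left out (0.0583, 0.0607 and 0.0734). The log2 ratio of Cebpa to Cebpb was 0.26 higher in tumours than in non-tumour tissue, with overlapping values (2-sided exact permutation p 0.4).

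Of 9 tested other members of the C/EBP family and its regulators (10 listed), 6 rose and 1 fell, against 12% and 13.4% of all genes. Ddit3 encodes CHOP, a C/EBP partner of the stress response that blocks binding to the usual sites. It averaged 483 ± 47.2 in tumours and 199 ± 44.2 in non-tumour tissue (log2 change 1.30, limma adjusted p 0.00232). Trib3, a pseudokinase induced by stress, averaged 127 ± 3.85 in tumours and 39.4 ± 6.21 in non-tumour tissue (log2 change 1.10). Trib2, a pseudokinase that directs the breakdown of C/EBPα, averaged 61.8 ± 5.60 in tumours and 24.2 ± 4.60 in non-tumour tissue (log2 change 0.65). Cebpe, known from granulocytes, was the 1 that fell (42.5 ± 4.50 in tumours and 174 ± 35.3 in non-tumour tissue, log2 change -1.28). The count was 4 in place of 7 with the deposited values, with scaling to the same median, and without tumour array 117 or non-tumour array 1 or 117. It was at most 5 without any other tumour or non-tumour array. Cebpg, 1 of the 6 that rose, was just inside the threshold (log2 change 0.14, limma adjusted p 0.0499).

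Acute phase genes, listed as targets of C/EBPβ, split in tumours. Of 15 tested, 8 rose and 6 fell, beside 12% and 13.4% of all genes. The serum amyloid gene Saa1 averaged 1416 ± 154 in tumours and 4191 ± 970 in non-tumour tissue (log2 change -1.25), and Orm2, an orosomucoid gene, averaged 79.2 ± 22.5 in tumours and 296 ± 56.8 in non-tumour tissue (log2 change -1.37). Fibrinogen moved the other way, with Fgb at 25742 ± 6328 in tumours and 13715 ± 1431 in non-tumour tissue (log2 change 1.19). Lcn2 rose too, with the largest change of the list, from 400 ± 103 in non-tumour tissue to 4987 ± 1783 in tumours (log2 change 3.73). Genes within the orosomucoid family and within the serum amyloid family are near copies of one another.

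**Figure D4:**
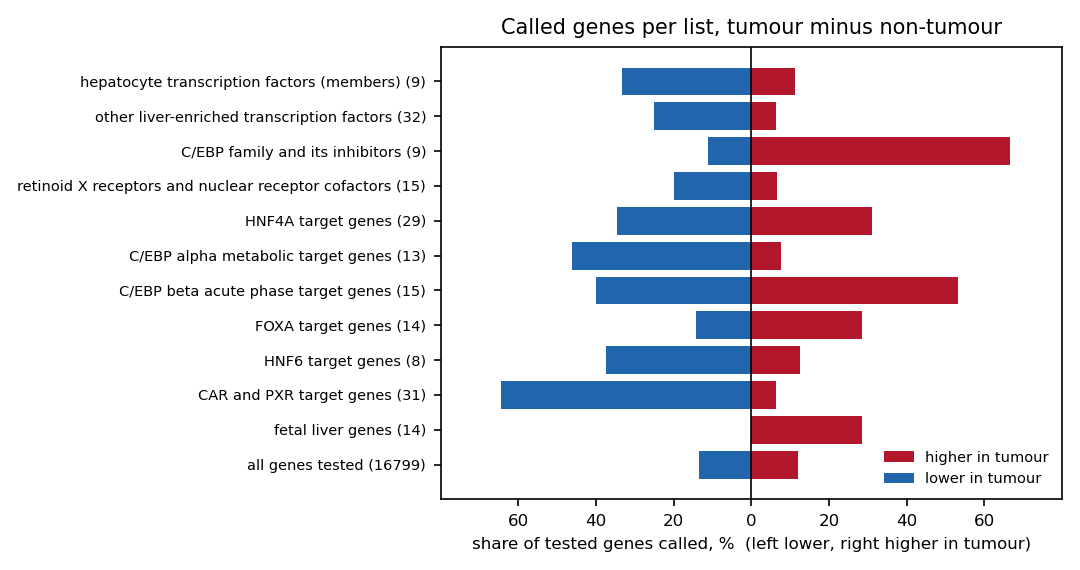
Share of tested genes called lower (left) and higher (right) in tumour than in non-tumour tissue, in % of the number tested, for each list and for all 16799 genes. Lists share genes. Of 31 CAR and PXR targets 20 are lower, and of 9 C/EBP family members and regulators 6 are higher.

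The 3 FOXA genes did not move together. Foxa3 was at 204.8, 156.9 and 122.9 in tumours 1, 117 and 186, against 69.4, 68.4 and 53.0 in non-tumour tissue and 131.8 and 88.8 on normal diet. Tumours and non-tumour tissue did not overlap. In deposited values tumour 186 lay between the 2 normal diet arrays, but on the normalized log2 scale (7.61) it lay above both (7.49 and 7.16). Foxa3 averaged 162 ± 41.1 in tumours and 63.6 ± 9.19 in non-tumour tissue (SD, n = 3 each), a ratio of 2.54. It rose by 0.99 ± 0.15 (log2, SE, limma adjusted p 0.00544). In mice 1, 117 and 186 the tumour had 2.95, 2.29 and 2.32 times the value of its own non-tumour tissue.

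Foxa2 was at 58.8, 69.4 and 69.6 in tumours 1, 117 and 186, against 124.4, 110.2 and 89.4 in non-tumour tissue. The tumours were lower in each of the 3 mice, with no overlap of the groups, but the log2 change of -0.41 ± 0.21 (SE) was not called (limma adjusted p 0.207). The 2 normal diet arrays, which differ widely in this gene, enter the estimate of its spread. With tumour and non-tumour arrays alone in the fit the adjusted p was 0.0286, and without normal diet array 117 or 120 it was 0.0317 and 0.0324. Foxa1 was at 23.8, 20.7 and 29.4 in tumours, against 31.3, 26.9 and 29.8 in non-tumour tissue. These deposited values overlapped near the median probe of the arrays (log2 change -0.097, adjusted p 0.729). On the normalized log2 scale tumours lay at 6.24 to 6.33, just below non-tumour tissue at 6.34 to 6.39. The log2 ratio of Foxa3 to Foxa2 was higher in tumours than in non-tumour tissue by 1.41, and that of Foxa3 to Foxa1 by 1.09, both with no overlap (2-sided exact permutation p 0.1, the smallest possible, 0.117 adjusted over 7 pairs). Between these groups every pair compared except Cebpa to Cebpb had no overlap and this same p, so neither sets a pair apart from the rest.

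Of 14 tested FOXA targets of 15 listed, 4 rose and 2 fell, against 12% and 13.4% of all genes, with a median log2 change of -0.023. Igfbp1, a growth factor binding protein gene, averaged 6477 ± 2668 in tumours and 283 ± 113 in non-tumour tissue (log2 change 4.59), and Afp had a log2 change of 4.25. Pck1, which commits carbon to glucose synthesis, averaged 1473 ± 682 in tumours and 6405 ± 949 in non-tumour tissue (log2 change -1.90). Trf, the iron carrier transferrin, averaged 42921 ± 1872 in tumours and 38010 ± 3296 in non-tumour tissue (log2 change 0.30).

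**Figure D5:**
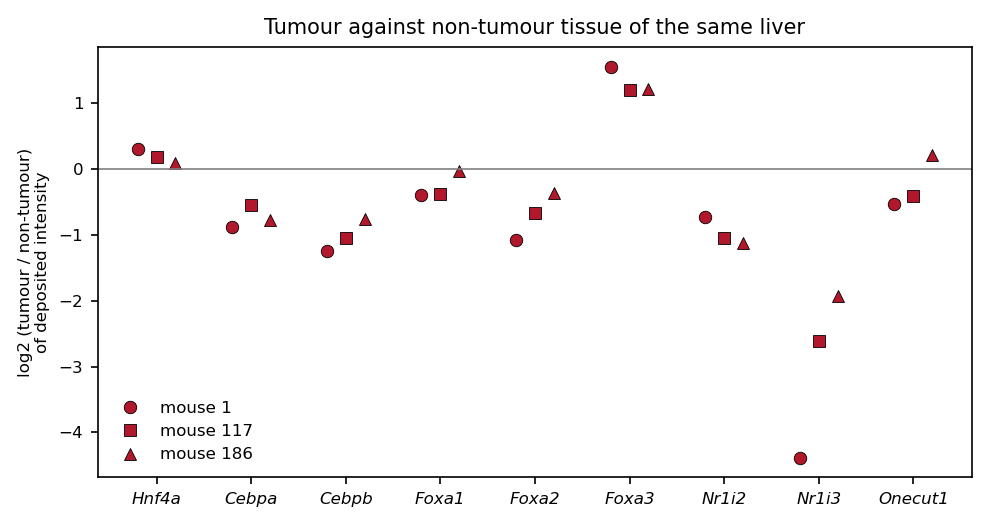
Log2 ratio of tumour to non-tumour deposited intensity within each of 3 livers (mice 1, 117 and 186) for the 9 factors, with 0 for equal values. Hnf4a and Foxa3 lie above 0 in all 3 livers, Onecut1 in 1, and the other 6 in none, with Nr1i3 between -4.39 and -1.92. Foxa1 lies at -0.019 in mouse 186. The share over all genes was not computed. On deposited group means, the 500 genes nearest to each factor in brightness had median log2 ratios below 0, from -0.052 (Foxa1) to -0.32 (Cebpb).

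Hnf4a was at 879.5, 919.2 and 642.6 in tumours 1, 117 and 186, against 713.8, 809.2 and 599.9 in non-tumour tissue and 1235.0 and 949.4 on normal diet. In these deposited values each tumour was above its own non-tumour tissue, by 1.23, 1.14 and 1.07 times, while the groups overlapped. On the normalized log2 scale they did not, with tumours at 9.85 to 10.35 and non-tumour tissue at 9.46 to 9.84. The log2 change was 0.47 ± 0.16 (SE), with a limma adjusted p of 0.0759. It ranged from 0.19 with the deposited values to 0.60 over the alternatives, with no change of sign. The 500 genes nearest to Hnf4a in brightness had a median log2 ratio of -0.31 in deposited values between these groups, and Hnf4a one of 0.20. With the mouse as a block the change was 0.46 and was called (adjusted p 0.0121), as it was without tumour array 186 (0.60, adjusted p 0.0371). It was also called with the mouse as a random block (0.47, limma adjusted p 0.0383) and with an offset of 10 (0.49, adjusted p 0.0467). The log2 ratio of Nr1i3 to Hnf4a was lower in tumours than in non-tumour tissue by 2.61 (no overlap, 2-sided exact permutation p 0.1, the smallest possible).

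Of 29 tested targets of HNF4α (30 listed), 9 rose and 10 fell, against 12% and 13.4% of all genes, with a median log2 change of -0.038. Slco1b2, an organic anion uptake carrier, averaged 240 ± 149 in tumours and 1940 ± 171 in non-tumour tissue (log2 change -2.82). Cyp8b1, which makes cholic acid, averaged 123 ± 66.3 in tumours and 1060 ± 104 in non-tumour tissue (log2 change -2.66). Ces3a, a carboxylesterase, averaged 612 ± 363 in tumours and 3878 ± 259 in non-tumour tissue (log2 change -2.54). Slc10a1, the bile acid uptake carrier, averaged 326 ± 150 in tumours and 1744 ± 66.3 in non-tumour tissue (log2 change -2.18). Apom, an apolipoprotein of high density lipoprotein, averaged 2335 ± 328 in tumours and 472 ± 57.4 in non-tumour tissue (log2 change 2.46).

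Onecut1 was at 71.2, 81.5 and 78.1 in tumours 1, 117 and 186, against 102.4, 107.5 and 66.9 in non-tumour tissue and 323.3 and 130.3 on normal diet. Tumour and non-tumour values overlapped (log2 change -0.11 ± 0.24 SE, limma adjusted p 0.804), and both lay below the normal diet arrays. Of 8 tested HNF6 targets, 1 rose and 3 fell in tumours over non-tumour tissue, against 12% and 13.4% of all genes. Cyp7a1, whose enzyme sets the pace of bile acid production, averaged 25.4 ± 12.4 in tumours and 138 ± 28.7 in non-tumour tissue (log2 change -1.36).

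Other liver-enriched transcription factors gave 2 that rose and 8 that fell of 32 tested, against 12% and 13.4% of all genes. Xbp1, a factor of secretory capacity, averaged 1905 ± 244 in tumours and 977 ± 96.4 in non-tumour tissue (log2 change 1.22). Nr0b2 encodes SHP, a repressor induced by bile acids, and averaged 197 ± 81.7 in tumours and 534 ± 13.8 in non-tumour tissue (log2 change -1.15). Nr1h4 encodes the bile acid receptor FXR and averaged 82.5 ± 32.5 in tumours and 192 ± 33.8 in non-tumour tissue (log2 change -0.85). The count was 4 in place of 10 without tumour array 117, and 6 without any 1 of tumour 1, non-tumour 1 and non-tumour 117. Of 14 tested genes of fetal liver 4 rose, against 12% of all genes. These were the fetal plasma protein gene Afp (log2 change 4.25), the desaturase gene Scd2 (4.00), the proteoglycan gene Gpc3 (3.99) and the pyruvate kinase gene Pkm (0.41).

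Non-tumour tissue was next set against normal diet liver, which compares diets in DMBA-treated livers outside tumours. None of the 9 factors was called (limma), against 3.84% of all genes (1.81% upwards and 2.03% downwards), and 2 of them had an unadjusted p below 0.05 (Cebpb and Onecut1). Cebpb averaged 2032 ± 89.9 in non-tumour tissue and 1574 ± 35.1 on normal diet (n = 2), with a log2 change of 0.60 ± 0.18 (SE, adjusted p 0.140). It was called with scaling to the same median (0.79, adjusted p 0.0231), with these groups alone in the fit (adjusted p 0.0180) and without tumour array 186 (0.0309). Its log2 ratio to Cebpa moved with it: that of Cebpa to Cebpb was lower in non-tumour tissue by 0.58 (no overlap, 2-sided exact permutation p 0.1, the smallest that 3 against 2 allows, 0.7 adjusted over 7 pairs). The log2 change of Nr1i3 was -0.040, with a 95% interval of -0.94 to 0.86, and 0.20 with scaling to the same median. Onecut1 averaged 92.3 ± 22.1 in non-tumour tissue and 227 ± 136 on normal diet (log2 change -0.76, adjusted p 0.187). Among the targets, 2 HNF4α genes rose and 3 fell of 29 tested, and 1 FOXA gene rose of 14. Apoa4, on the HNF4α list, averaged 19768 ± 3871 in non-tumour tissue and 408 ± 83.3 on normal diet (log2 change 5.59). Without non-tumour array 1 or 117, 3 HNF4α targets and 0 FOXA targets were called. Of 31 CAR and PXR genes tested 5 rose and 2 fell, and of 15 acute phase genes 6 rose. The acute phase gene Saa2 averaged 1814 ± 140 in non-tumour tissue and 343 ± 117 on normal diet (log2 change 2.41). The counts of 7 and 6 were 3 each without normal diet array 117, and 3 and 2 without normal diet array 120. Without non-tumour array 1 or 186 the first was 4 or 3, and without tumour array 1 it was 12. It was 11 with the deposited values and 12 with these groups alone in the fit.

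Tumours and normal diet liver differ in diet and tissue at once, and this comparison shares its arrays with the other 2. Of the 9 factors 1 rose and 2 fell, against 27.8% of all genes changed, 12.9% upwards and 15% downwards. Nr1i3 averaged 80.9 ± 54.4 in tumours and 595 ± 23.5 on normal diet (n = 2) and fell by 2.18 on the log2 scale (SE 0.37, limma adjusted p 0.00715). Cebpa averaged 74.1 ± 6.25 in tumours and 134 ± 15.6 on normal diet and fell by 0.43 (SE 0.082, adjusted p 0.0102). Foxa3 averaged 162 ± 41.1 in tumours and 110 ± 30.4 on normal diet and rose by 0.58 ± 0.17 (adjusted p 0.0481), a call that was lost in 11 of 19 alternatives and had the opposite sign in 1 more (-0.015 with the local background). The calls of Nr1i3 and Foxa3 were lost without either 1 of the normal diet arrays, and that of Cebpa without array 117. Such a fit leaves 1 normal diet array, so only the log2 change is given. It was -2.17 for Nr1i3, -0.38 for Cebpa and 0.75 for Foxa3 without array 117. Without array 120 it was -2.20 for Nr1i3 and 0.42 for Foxa3. The log2 change of Hnf4a was 0.054 ± 0.18, and -0.43 with the deposited values, so its direction was not settled. Onecut1 was just outside the threshold (log2 change -0.87 ± 0.27, adjusted p 0.0572) and was called in 5 of 19 alternatives.

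The 2 normal diet livers themselves differed in Foxa1, Foxa2 and Onecut1. Foxa1 was at 90.3 and 32.7 in mice 117 and 120, Foxa2 at 218.6 and 92.3, and Onecut1 at 323.3 and 130.3. The ratios of mouse 117 to mouse 120 were 2.76, 2.37 and 2.48. On the normalized log2 scale only 0.333%, 0.179% and 0.149% of the 16799 genes differed more between these arrays than Foxa1, Foxa2 and Onecut1. The other 6 factors had ratios of 1.03 (Cebpb) to 1.48 (Foxa3). A difference between 2 animals has no replicate check, and each comparison with normal diet liver for these 3 genes rests on it. For Foxa2 the log2 change of non-tumour minus normal diet was -0.21 with both arrays, 0.21 without mouse 117 and -0.63 without mouse 120.

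For each of the 4 factors called between tumour and non-tumour tissue, the genes with the most similar profile over the 8 arrays were sought among 15338 genes, by the root mean square difference of centred log2 values. For Nr1i3 these were Cyp4a31 (0.10), Cyp27a1 (0.13) and Car3 (0.15), against a size of 1.11 for the Nr1i3 profile itself. For Cebpa they were C030006K11Rik (0.042), Cpped1 (0.045) and Mettl26 (0.048), for Cebpb Gpd2 (0.081), Slc25a20 (0.093) and Elovl6 (0.095), and for Foxa3 Olfr64 (0.086), Tmed9 (0.098) and Cldn1 (0.11). The profile sizes of Cebpa, Cebpb and Foxa3 were 0.23, 0.37 and 0.46.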

How the data were processed

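RNA of 8 samples was coupled to Cy5 and measured on single-colour arrays, per the labels' protocols. The authors' deposited normalized intensity was found by recomputation to be the spot median less the mean blank spot, over 1 factor per array. Dim probes carry no value there.

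Tests used scanner spot medians. Normexp took the 2736 blank spots as its background (offset 50), and quantile normalization and log2 followed in limma 3.58.1 under R 4.3.3. Of 23473 probes, 20690 had 1 symbol and 2783 none in GEO's probe table. The brightest probe of a gene was kept, and genes with a value on every array of any 1 group were tested. A single limma model of the 3 group means (all arrays, 5 residual and 1.49 prior degrees of freedom) gave 2-sided p-values with Benjamini-Hochberg adjustment, and was tested on simulated data. Ratios of factors were compared by exact permutation (scipy 1.17.1). The number of arrays limits the precision, and p-values measure the spread between these samples.

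Tumour and non-tumour tissue of 1 mouse share a liver, per the labels, so mouse numbers pair them. Their deviations from group means had correlations of 0.17, 0.44 and 0.15 in mice 1, 117 and 186, and of -0.27 to 0.028 across mice.

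Members and lists were chosen with earlier results of these data known. Named genes are the 9 members and, by size among the called, up to 6 per list between tumour and non-tumour tissue and up to 2 between diets, of which a part is shown. Alternatives were blank mean subtraction, scaling to the same median, the authors' deposited values (pseudocount 1), offsets of 10 and 200, no filter, genes listed on all arrays, compared groups alone, mouse as fixed or random block, a variance trend, local background and leaving out each array.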

Additional observations from a re-analysis of the deposited data

How the results depend on the processing

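Each result was recomputed under 20 alternatives between tumour and non-tumour tissue and 19 in each other comparison. Each factor has 1 probe, so the choice among probes was not an alternative. Between tumour and non-tumour tissue 4 of 9 factors were called, 3 to 5 without 1 array, 6 with the mouse as replicate block (3711 genes in all) and 0 with the local background (129 of 4267 genes). No factor changed sign in that comparison. The block changed the call of Hnf4a and Nr1i2, given with those genes, and of no other factor. Between non-tumour and normal diet the factors called were 0, but 1 with scaling to the same median or with the compared groups alone, and 0 to 1 without 1 array. The genes called there were 645, 1404 with the same median, 4 with the local background and 103 to 782 without 1 array. Between tumour and normal diet the factors called were 3, but 5 with the blank mean subtracted, 6 with the deposited values, with an offset of 10 or with a variance trend, 0 with the local background and 0 to 4 without 1 array. The genes called there were 4678, 223 with the local background and 2317 to 4415 without 1 array.

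Signs turned as follows. Between non-tumour and normal diet, Cebpa (0.014) was at -0.12 with the deposited values, -0.024 with the local background and -0.044 to 0.071 without 1 array. Foxa2 (-0.21) ranged from -0.63 to 0.21 without 1 array. Nr1i3 (-0.040) was at 0.20 with the same median and 0.069 with the local background. Between tumour and normal diet, Hnf4a (0.054) was at -0.43 with the deposited values, -0.040 with the local background and -0.090 to 0.20 without 1 array. Cebpb (-0.11) was at 0.11 with the local background and -0.30 to 0.047 without 1 array, and Foxa3 (0.58) at -0.015 with the local background. The causes were not tested. The share of called genes that were higher was 47.1% between tumour and non-tumour, and 39.9% with the deposited values. It was 47.1% between non-tumour and normal diet, but 77.2% with the same median and 61.8% with the blank mean subtracted. It was 46.2% between tumour and normal diet, and 31.4% with the deposited values. With the deposited values the median of all genes moved by -0.11 between non-tumour and normal diet and by -0.18 between tumour and normal diet.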

Other observations

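The 2 normal diet livers differed in more than Foxa1, Foxa2 and Onecut1. The genes below were chosen after their values were seen. All but Hhex, Mlxipl and Ppargc1a are among the 30 with the largest difference between these arrays, of those above 10 on both. Cish, a growth hormone feedback gene, was at 187.4 in mouse 117 and 30.0 in mouse 120. Bcl6, a repressor that growth hormone lowers in liver, was at 31.5 and 111.7 in the same mice. Igfbp1, which insulin represses, was at 21.6 in mouse 117 and 240.0 in mouse 120, and Irs2, an insulin receptor substrate raised in fasting, at 79.4 and 303.9. G6pc, the last enzyme of glucose output, was at 2493.2 in mouse 117 and 4371.9 in mouse 120. Gadd45g, a stress and cytokine response gene, was at 676.4 and 67.7. Among the other liver-enriched factors Hhex stood 1.71 times and Mlxipl 1.70 times higher in mouse 117. Others of the 30 were the sterol synthesis genes Sqle (86.2 in mouse 117 and 359.8 in mouse 120) and Msmo1 (831.9 and 1673.3). Alas1, also of the 30, was at 5964.6 in mouse 117 and 3130.4 in mouse 120. Ppargc1a, described above as induced in fasting, was at 81.9 in mouse 117 and 71.1 in mouse 120. Feeding state and hour of collection are not given in the sources used here. The state of either animal was not tested, and none is read from these genes.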
